A study of Mus musculus with 7 samples.

Results

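The genes described here make cholesterol and fatty acids. They were taken by symbol. The mevalonate pathway gave 6 genes, the sterol pathway that follows it 11 genes, and fatty acid synthesis and desaturation 10 genes. A list of 5 regulators holds the SREBP regulators and, counted with them, the cholesterol carrier Stard4. Together these are 32 of the 54446 genes in the count table. All 32 passed the filter on low counts that left 16438 genes to test. Mean levels of the 32 genes over all libraries ran from 23.1 to 2012 CPM (counts scaled to library size), so none was close to the detection limit.

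The libraries hold polyadenylated RNA of pancreatic spheroids, which are cultured clusters of pancreatic epithelial cells, from wild-type C57BL/6J mice. In the untreated group (3 libraries, labelled CTRL) the donor mice had no treatment, and in the post-caerulein group (4 libraries, labelled PostCAE) they had earlier received caerulein, which mimics cholecystokinin and sets off acute pancreatitis. All spheroids shared a serum-supplemented medium with EGF, insulin, hydrocortisone, cholera toxin and bovine pituitary extract, so both groups grew with supplied lipid and insulin. Mouse age, caerulein dose and the interval since treatment were not given in the sources used here. Labels also leave it unsaid if each replicate is its own animal or culture, and p-values therefore describe only the spread among the 7 libraries.

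Cholesterol is built from acetyl-CoA: the mevalonate pathway makes isoprenoid units, squalene synthase joins them, and a chain of endoplasmic reticulum enzymes turns lanosterol into cholesterol. When sterol in the membrane is low, Scap escorts the SREBP transcription factors away from their retention protein Insig1, and the released SREBPs raise transcription of both branches, SREBP2 (gene Srebf2) mainly of sterol genes and SREBP1 (gene Srebf1) mainly of fatty acid genes. Fatty acid synthase makes palmitate, which elongases lengthen and desaturases such as Scd1 and Fads2 make unsaturated.

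Sequencing depth was between 34783738 and 46744497 counts per library. The duct keratin and epithelial marker list (10 genes) summed to 14222 to 15282 CPM in the untreated and 13933 to 21550 CPM in the post-caerulein libraries. The adipocyte list (8 genes) summed to 3.24 to 34.9 CPM, with Adipoq and Plin1 at 0.0555 CPM or less in every library, and the endothelial list (5 genes) to at most 0.862 CPM. The acinar list (9 genes) summed to 0.619 to 0.845 CPM in untreated libraries but to 1.80 to 11.9 CPM after caerulein, and the islet list (8 genes) to 0.169 to 0.534 CPM but to 0.673 to 4.74 CPM after caerulein, so both moved with the group without overlap, at low levels, and 1 acinar marker was called with the block as a term. Most of the acinar difference lay in Ctrb1, a chymotrypsinogen, at 0.0422 to 0.222 CPM against 0.971 to 7.32 CPM. The cycling list (8 genes) summed to 554, 609 and 439 CPM in untreated 1 to 3 and to 592, 347, 316 and 778 CPM in post-caerulein 1 to 4, with overlap. The part of these lists in the values below was not tested. The authors' deposited table was given back by a fit that sets untreated 3 and post-caerulein 4 apart from the other 5 libraries as a block. No label says what this block stands for, and the values that differ along it are given beside the results. In bulk RNA fewer cells of a type and less RNA per cell cannot be told apart.

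No member passed an adjusted p of 0.05 in edgeR's quasi-likelihood test of post-caerulein against untreated, and neither did any of the 16438 genes (0% called); 1 member, Hmgcs1, and 1561 genes (9.5%) had an unadjusted p under 0.05. DESeq2 on the same design called 0 members, where it called 3.12% of all genes. With the block as a term, edgeR again called 0 of the 32 members, against 1.53% of all genes, and 4 members (Hmgcs1, Msmo1, Acaca and Scd1) against 17.5% of all genes had an unadjusted p under 0.05. DESeq2 with the block called 3 members (Hmgcs1 and Msmo1 higher, Scd1 lower), against 9.16% of all genes. All 17 mevalonate and sterol genes had a positive log2 change, with a median of 0.33, beside 47.1% of all genes and a median of -0.02 over all genes. Of the 10 fatty acid genes 4 were positive, with a median of -0.05. Of the 5 regulators 2 were positive (Srebf2 and the cholesterol carrier Stard4), also with a median of -0.05. The fatty acid direction turned with the libraries used: the median was 0.085 without untreated 1, 0.072 without untreated 2 and 0.098 without post-caerulein 4, with 7 of 10 genes positive each time, and 0.13 with the replicate number as a block (8 of 10). The difference between the branches was not tested.

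**Figure D1:**
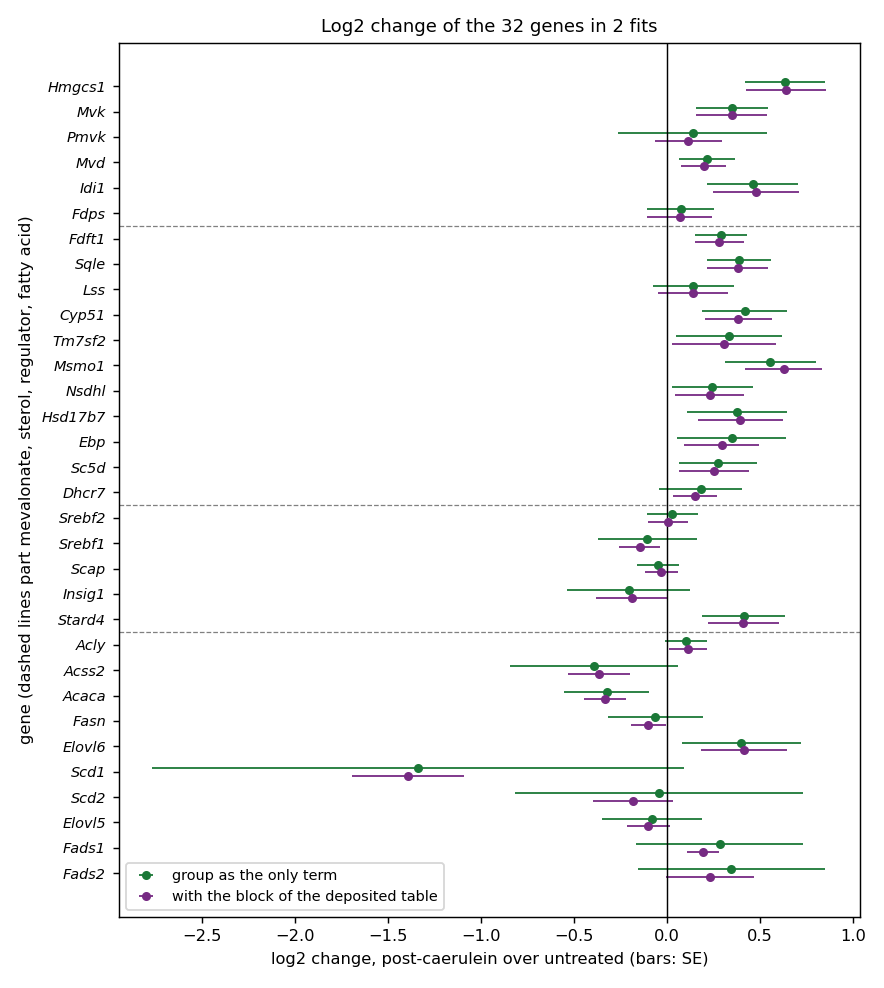
Log2 change of post-caerulein over untreated for each of the 32 genes, grouped by role, with its standard error, from edgeR's quasi-likelihood fits with the group as the only term (green) and with the block of the deposited table added (purple). The 17 mevalonate and sterol genes lie to the right of 0 in both fits, while the fatty acid genes spread on both sides and the error of Scd1 goes from 1.43 to 0.30 when the block is added.

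The mevalonate genes were led by Hmgcs1, the cytosolic HMG-CoA synthase at the entry of the pathway (chromosome 13, 119690446 to 119708260, plus strand, GRCm38). Hmgcs1 was 287, 312 and 329 CPM in untreated 1, 2 and 3, and 679, 389, 382 and 472 CPM in post-caerulein 1 to 4. Every post-caerulein library lay above every untreated one, with post-caerulein 1 far above the rest. Group means were 309 ± 21.3 CPM (SD, n = 3) and 480.4 ± 138 CPM (SD, n = 4), a log2 change of 0.64 ± 0.22 (SE) with an adjusted p of 0.379 in edgeR's quasi-likelihood test. Hmgcs1 and Fdft1 were the 2 members whose groups did not overlap with post-caerulein higher, as for 4.67% of all genes, and no member had non-overlapping groups with post-caerulein lower (4.65% of all genes).

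Idi1, which isomerises the isoprenoid building block, was 25.7, 30.3 and 32.6 CPM in the untreated and 55.2, 31.0, 29.1 and 47.5 CPM in the post-caerulein libraries (log2 change 0.46 ± 0.24, adjusted p = 0.642, edgeR). Mvk, mevalonate kinase, was 22.9, 23.8 and 19.0 CPM in the untreated and 35.7, 21.8, 24.0 and 30.1 CPM in the post-caerulein libraries, a log2 change of 0.35 ± 0.19. In both, post-caerulein 1 and 4 were above every untreated library while post-caerulein 2 and 3 lay within or near the untreated range. Pmvk, Mvd and Fdps, the enzymes that phosphorylate and decarboxylate mevalonate and join the isoprenoid units to farnesyl diphosphate, had log2 changes of 0.14 ± 0.40, 0.22 ± 0.15 and 0.07 ± 0.18. Fdps shares 77.4% of its exon length with a predicted gene on the same strand that took 4 reads, so the Fdps count is uncertain.

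In the sterol pathway proper, Fdft1, the squalene synthase that commits carbon to sterols, was 154, 163 and 147 CPM in the untreated and 235, 166, 179 and 176 CPM in the post-caerulein libraries. Its groups did not overlap, and untreated 2 lay only just below post-caerulein 2 (log2 change 0.29 ± 0.14, adjusted p = 0.595, edgeR). Fdft1 shares 774 bases (20.9% of its exon length) with the antisense gene Ctsb, which took 147113 reads against 51750 for Fdft1. Ctsb itself was 549 ± 101 CPM (SD) in the untreated and 445 ± 21.6 CPM in the post-caerulein libraries, which is the opposite direction to Fdft1.

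Msmo1, the methylsterol monooxygenase that starts removal of the C4 methyl groups, had the largest log2 change of the sterol list (0.56 ± 0.24, adjusted p = 0.537, edgeR). It was 203, 216 and 344 CPM in the untreated and 485, 302, 318 and 390.0 CPM in the post-caerulein libraries. Untreated 3 stood within the post-caerulein range, and the other untreated libraries lay below it.

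Cyp51, the lanosterol demethylase, was 254, 273 and 193 CPM in the untreated and 455, 276, 297 and 254 CPM in the post-caerulein libraries (log2 change 0.42 ± 0.23). Sqle, the squalene epoxidase and a rate-limiting step, was 165, 178 and 141 CPM in the untreated and 272, 177, 188 and 208 CPM in the post-caerulein libraries (log2 change 0.39 ± 0.17, adjusted p = 0.546, edgeR). For both genes the groups overlapped at their edges and post-caerulein 1 was the highest library.

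The remaining sterol genes had log2 changes between 0.14 and 0.38. Hsd17b7, a sterol ketoreductase, was the only gene of the list with its highest level in post-caerulein 4. It was 94.1 and 98.9 CPM in post-caerulein 1 and 4 and 53.8 and 49.4 CPM in post-caerulein 2 and 3, beside 51.5, 55.2 and 64.5 CPM in untreated. Lss (lanosterol synthase), Nsdhl (a C4 decarboxylating dehydrogenase), Ebp (a sterol isomerase), Sc5d (a sterol desaturase) and Dhcr7 (the final reductase to cholesterol) had log2 changes of 0.14, 0.24, 0.35, 0.27 and 0.18. Ebp was 51.5, 53.1 and 33.0 CPM in the untreated and 89.5, 50.4, 53.4 and 40.0 CPM in the post-caerulein libraries, so post-caerulein 1 was the highest by a wide margin and the other libraries of both groups were mixed. Tm7sf2, a sterol reductase, had a log2 change of 0.33 ± 0.29 and shares 69.8% of its exon length with Vps51 on the same strand, so its reads are uncertain.

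**Figure D2:**
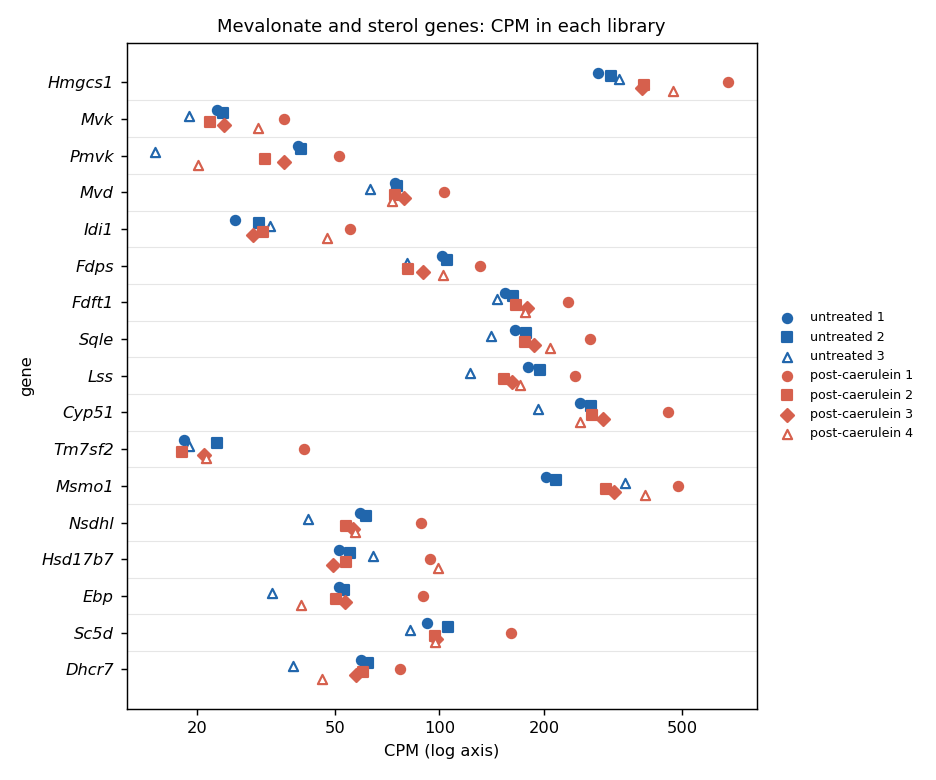
CPM of the mevalonate and sterol genes in each of the 7 libraries, on a log axis. Post-caerulein 1 (red circles) is the highest library for 16 of the 17 genes, and post-caerulein 4 (open red triangles) is above untreated 3 (open blue triangles) for all 17.

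Post-caerulein 1 was the highest of the 7 libraries for 16 of the 17 mevalonate and sterol genes, Hsd17b7 being the exception, where 19% of all genes had their maximum there. The summed level of the 17 genes was 1839, 1973 and 1765 CPM in the untreated and 3299, 2036, 2118 and 2305 CPM in the post-caerulein libraries. The groups did not overlap in this sum, but untreated 2 and post-caerulein 2 were close. The group means of 1859 ± 105 (SD, n = 3) and 2440 ± 584 CPM (SD, n = 4) carried a wide post-caerulein spread. Abundant genes weigh most in the sum. With equal weight per gene, as the mean log2 of CPM + 0.5 less each gene's mean over all libraries, the groups overlapped. On that scale untreated 2 was -0.029, above post-caerulein 2 at -0.095 and post-caerulein 3 at -0.034. Leaving out post-caerulein 1 lowered the median log2 change of the 17 genes to 0.11, with 14 positive, and that of Hmgcs1 to 0.44 (adjusted p = 0.518, edgeR). Leaving out untreated 3 gave a median of 0.28, with 14 positive. Duct markers also summed highest in post-caerulein 1 (21550 CPM), with Krt8 at 6294 CPM there, and their part in the sterol values was not tested.

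Within each side of the block the sterol branch kept its sign for most genes. Between post-caerulein 4 and untreated 3, a comparison of 1 library with 1 library and so without a test, all 17 genes were higher in post-caerulein 4, as were 50.4% of all genes. So were 7 of the 10 fatty acid genes, with a median log2 difference of 0.078, beside 0.40 for the 17. In the other 5 libraries, untreated 1 and 2 against post-caerulein 1, 2 and 3, 16 of 17 were positive with a median log2 change of 0.31, against 50.9% of all genes. The exception was Fdps at -0.022. With the block as a term in the fit over all 7 libraries, 17 of 17 were positive with a median of 0.29, against 49.4% of all genes.

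RefSeq promoter windows on GRCm38.p6, the 250 bases before each annotated start, were found for 25 of the 32 genes, with 31 windows in all. Those of Hmgcs1 and Ebp from the sterol branch and of Fasn and Fads2 from the fatty acid branch are printed to show windows with and without the CCAAT box, the site bound by NF-Y, a known partner of SREBP. Capitals mark CCAAT on either strand (read as CCAAT or ATTGG) and the sterol element core TCACNCCAC. Positions are chr13:119690101-119690350 on the plus strand for Hmgcs1, and chrX:8193513-8193762, chr11:120824548-120824797 and chr19:10101504-10101753 on the minus strand for Ebp, Fasn and Fads2.
Hmgcs1: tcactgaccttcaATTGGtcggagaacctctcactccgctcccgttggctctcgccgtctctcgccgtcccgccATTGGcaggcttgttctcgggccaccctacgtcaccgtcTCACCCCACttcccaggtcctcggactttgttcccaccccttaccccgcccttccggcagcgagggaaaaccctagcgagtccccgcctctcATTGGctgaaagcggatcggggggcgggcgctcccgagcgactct
Ebp: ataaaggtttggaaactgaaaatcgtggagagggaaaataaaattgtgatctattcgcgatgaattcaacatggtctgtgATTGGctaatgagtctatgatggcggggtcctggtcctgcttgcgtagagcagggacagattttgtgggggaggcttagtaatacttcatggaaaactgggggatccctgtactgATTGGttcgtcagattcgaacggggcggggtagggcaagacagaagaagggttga
Fasn: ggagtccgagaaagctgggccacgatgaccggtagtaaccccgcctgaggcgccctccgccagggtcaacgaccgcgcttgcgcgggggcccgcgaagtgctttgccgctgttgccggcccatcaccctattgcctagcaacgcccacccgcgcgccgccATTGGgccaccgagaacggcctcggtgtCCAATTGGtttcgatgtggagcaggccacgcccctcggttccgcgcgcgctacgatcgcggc
Fads2: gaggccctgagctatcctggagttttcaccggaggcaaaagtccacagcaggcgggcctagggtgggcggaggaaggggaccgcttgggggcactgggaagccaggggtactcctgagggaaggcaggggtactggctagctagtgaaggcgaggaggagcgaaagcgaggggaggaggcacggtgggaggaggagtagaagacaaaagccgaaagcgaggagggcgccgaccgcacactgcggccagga

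Some genes have several windows, and a gene was counted as holding a motif if any of its windows did. CCAAT was found for 14 of 14 matched mevalonate and sterol genes, 3 of 4 regulators and 3 of 7 fatty acid genes. It was found for 37.5% of all 27025 genes with a window, counted in the same way. Dhcr7 held CCAAT in 1 of its windows and not in the others. Hmgcs1 held 3 copies and the only match among the members to TCACNCCAC, a motif present for 1.22% of all genes. Ebp held 2 copies, Fasn held 3, of which a pair overlaps within CCAATTGG, and Fads2 held none. The printed windows were picked to show both cases, so their copy numbers do not bear on the branches. The difference in counts between branches was not tested. GGGCGG, the GC box, was present in 13 of 14 sterol-branch genes, 4 of 4 regulators and 3 of 7 fatty acid genes (35.4% of all genes). CACGTG, the E-box, was present in 3, 2 and 1 of them (6.86% of all genes). All motifs were searched on both strands, and a match describes the letters in the window, not a bound site.

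The regulators had no common direction. Srebf2, the main activator of sterol genes, was 524, 505 and 459 CPM in the untreated and 599, 486, 506 and 432 CPM in the post-caerulein libraries, a log2 change of 0.03 ± 0.14. Srebf1 was 255, 229 and 135 CPM in the untreated and 241, 186, 209 and 131 CPM in the post-caerulein libraries (log2 change -0.11 ± 0.27), and its lowest libraries were untreated 3 and post-caerulein 4. Scap was between 88.4 and 112 CPM in all 7 libraries (log2 change -0.05 ± 0.11), the narrowest range of the 5.

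Insig1, the retention protein and itself a known SREBP target, was 247, 260.1 and 105 CPM in the untreated and 242, 169, 163 and 133 CPM in the post-caerulein libraries, a log2 change of -0.21 ± 0.33. Its groups overlapped, with untreated 3 lowest. Stard4, which carries cholesterol between membranes, was also highest in post-caerulein 1 and lowest in untreated 3, at 91.1, 97.0 and 59.0 CPM in the untreated and 146, 95.9, 93.2 and 103 CPM in the post-caerulein libraries (log2 change 0.41 ± 0.22, adjusted p = 0.653, edgeR). Its groups overlapped, with untreated 2 above post-caerulein 2 and 3.

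**Figure D3:**
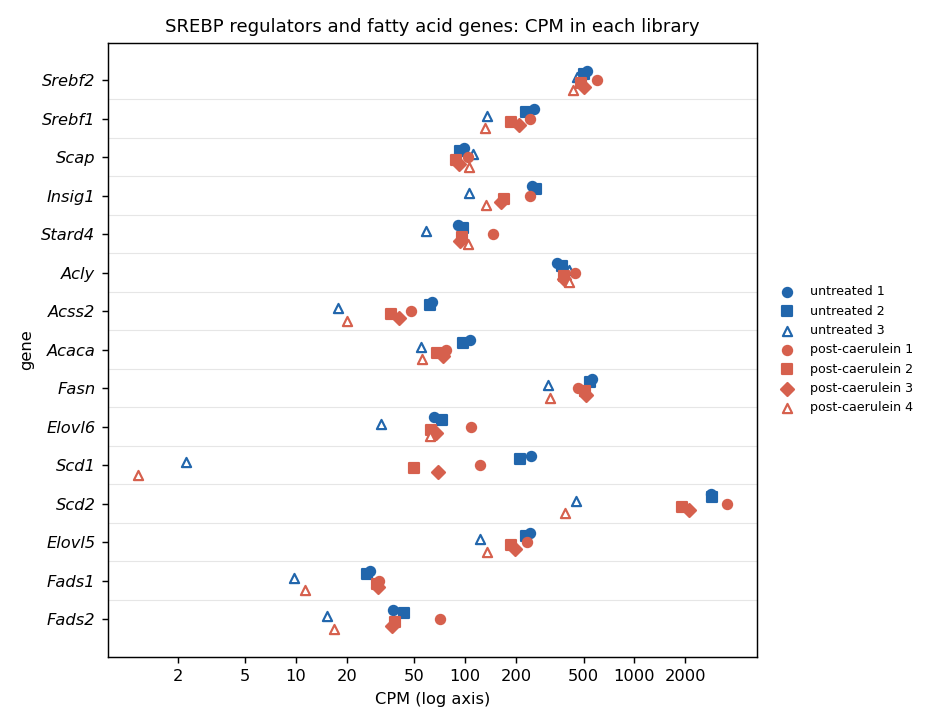
CPM of the SREBP regulators and fatty acid genes in each of the 7 libraries, on a log axis. Open triangles mark untreated 3 and post-caerulein 4, which lie to the left of the other libraries for the desaturases and Acss2, farthest for Scd1 at 2.22 and 1.16 CPM.

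The fatty acid genes were mostly low in the same 2 libraries, untreated 3 and post-caerulein 4. Scd1, the stearoyl-CoA desaturase that makes oleate (chromosome 19, 44394451 to 44407709, minus strand), was 245, 211 and 2.22 CPM in untreated 1, 2 and 3 and 122, 49.8, 69.3 and 1.16 CPM in post-caerulein 1 to 4. Untreated 3 was 103-fold below the mean of untreated 1 and 2, and post-caerulein 4 was 69.4-fold below the mean of post-caerulein 1 to 3. Across all libraries the log2 change was -1.34 ± 1.43 (adjusted p = 0.879, edgeR). With the block as a term it was -1.40 ± 0.30 (adjusted p = 0.0716, edgeR), a like change with a far smaller error.

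Scd2, its paralog, which catalyses the same reaction (chromosome 19, 44293676 to 44306864, plus strand), was the most abundant member per length, at 369 CPM per kilobase of exon. It was 2827, 2858 and 453 CPM in the untreated and 3533, 1921, 2104 and 391 CPM in the post-caerulein libraries. The same pair of libraries was low, by 6.28-fold in untreated and 6.44-fold in post-caerulein, and the log2 change between groups was -0.04 ± 0.78. Per kilobase the ratio of Scd2 to Scd1 was 10.2, 12.0 and 180.5 in untreated and 25.8, 34.2, 26.9 and 300.0 in post-caerulein libraries, so Scd1 made up a smaller share of the pair in every post-caerulein library than in the untreated libraries on the same side of the block. Reads of these close paralogs may have been split between them by the authors' counting.

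Fads1 and Fads2, neighbouring desaturases of polyunsaturated fatty acids, followed the same libraries. Fads1 was 27.3, 26.4 and 9.70 CPM in the untreated and 31.1, 30.1, 30.5 and 11.3 CPM in the post-caerulein libraries (log2 change 0.28 ± 0.45). Fads2 was 37.5, 43.4 and 15.2 CPM in the untreated and 70.7, 38.6, 36.9 and 16.7 CPM in the post-caerulein libraries (log2 change 0.35 ± 0.50). Both groups overlapped for each gene, with untreated 3 and post-caerulein 4 lowest.

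Acss2, which makes acetyl-CoA from acetate, was 63.2, 61.5 and 17.6 CPM in the untreated and 47.5, 36.4, 40.5 and 20.1 CPM in the post-caerulein libraries (log2 change -0.39 ± 0.45). Acaca, acetyl-CoA carboxylase and the committed step, was 106, 96.5 and 54.9 CPM in the untreated and 77.4, 68.2, 73.5 and 55.2 CPM in the post-caerulein libraries (log2 change -0.32 ± 0.23). In both genes post-caerulein 1, 2 and 3 lay between untreated 3 and the pair of untreated 1 and 2.

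Elovl6, the elongase from palmitate to stearate, was 65.2, 72.5 and 31.7 CPM in the untreated and 108, 62.3, 66.7 and 61.5 CPM in the post-caerulein libraries (log2 change 0.40 ± 0.32). Untreated 3 was the lowest library by a wide margin and post-caerulein 1 the highest. Fasn, fatty acid synthase, was 559, 545 and 309.5 CPM in the untreated and 462, 510.2, 516 and 315 CPM in the post-caerulein libraries (log2 change -0.06 ± 0.25). Acly, the ATP citrate lyase that supplies acetyl-CoA to both branches, was the steadiest, between 350.1 and 444 CPM (log2 change 0.10 ± 0.11), and Elovl5, a polyunsaturated elongase, had a log2 change of -0.08 ± 0.27.

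**Figure D4:**
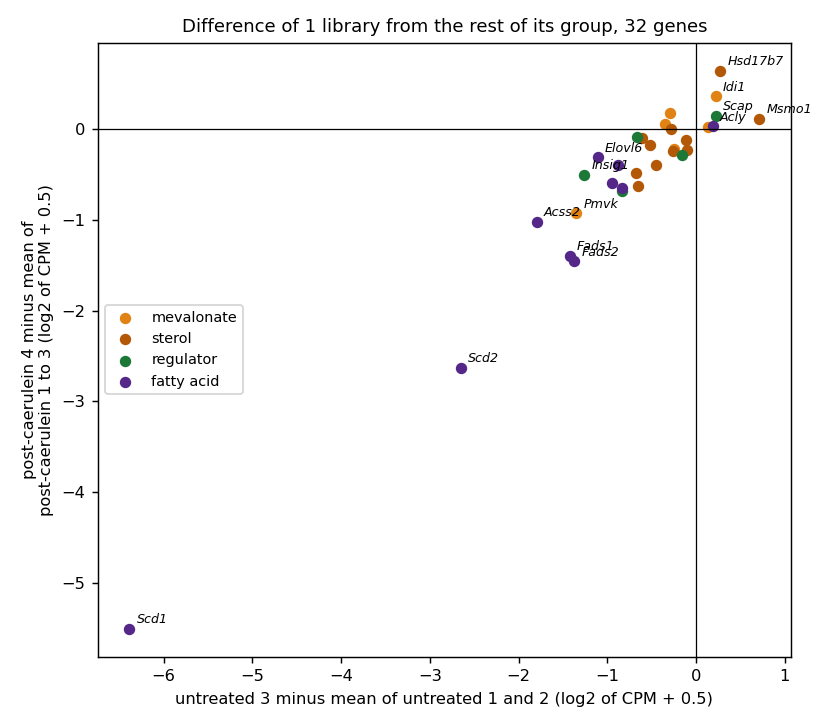
For each member, the log2 difference of untreated 3 from untreated 1 and 2 (horizontal axis) and of post-caerulein 4 from post-caerulein 1 to 3 (vertical axis), on the scale log2 of CPM + 0.5. Scd1, Scd2, Acss2, Fads1 and Fads2 lie beyond 2-fold lower on both axes, all of them fatty acid genes, and no mevalonate or sterol gene does.

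Scd1, Scd2, Acss2, Fads1 and Fads2 were more than 2-fold lower in both untreated 3 and post-caerulein 4 than in the other libraries of their group, which makes 5 of the 32 members, all in the fatty acid branch, against 2.08% of all genes. Among the further pathway genes described below, the same held for 1 of 18 tested fatty acid genes. It also held for 2 of 9 sterol uptake and control genes and 2 of 6 sterol efflux and ester genes. Without the 2-fold limit 9 of 10 fatty acid genes (all but Acly), 4 of 5 regulators and 10 of 17 mevalonate and sterol genes were lower in both, against 33.8% of all genes. The summed fatty acid level was 4522, 4515 and 1426 CPM in the untreated and 5125, 3285, 3519 and 1418 CPM in the post-caerulein libraries, most of it Scd2. Without Scd2 it was 1695, 1657 and 974 CPM in the untreated and 1592, 1363, 1415 and 1027 CPM in the post-caerulein libraries, where the same libraries were again lowest. Several markers moved with these 2 libraries. Muc1, a mucin of the duct list, was 820, 753 and 80.0 CPM across untreated 1 to 3 and 611, 254, 324 and 95.2 CPM across post-caerulein 1 to 4, low in the same pair. Cftr was 39.1, 38.5 and 1.02 CPM in untreated 1 to 3 and 4.67 to 4.76 CPM after caerulein, so it was low in untreated 3 but not set apart in post-caerulein 4. The adipocyte list was higher in the pair, at 34.9 and 28.4 CPM against 3.24 to 23.6 CPM elsewhere, of which Plin4 alone gave 23.8 and 21.2 CPM. The fibroblast list was 21.2 CPM in untreated 3 against 0.396 and 0.148 CPM in untreated 1 and 2, while post-caerulein 4, at 7.04 CPM, lay within the 3.00 to 7.44 CPM of its group. Cd68, which made up most of the leukocyte list, was 97.9 CPM in untreated 3 against 24.8 and 20.6 CPM in its 2 group mates. Post-caerulein 4, at 23.8 CPM, lay within the 11.7 to 35.0 CPM of its group. The rest of the leukocyte list was low in untreated 3, with Csf1r at 0.623 CPM, Cd79a at 0.289 CPM and Ptprc and Cd3e at 0.0222 CPM. Adgre1 and Itgam were at 0 CPM there. The part of these markers in the fatty acid values was not tested.

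**Figure D5:**
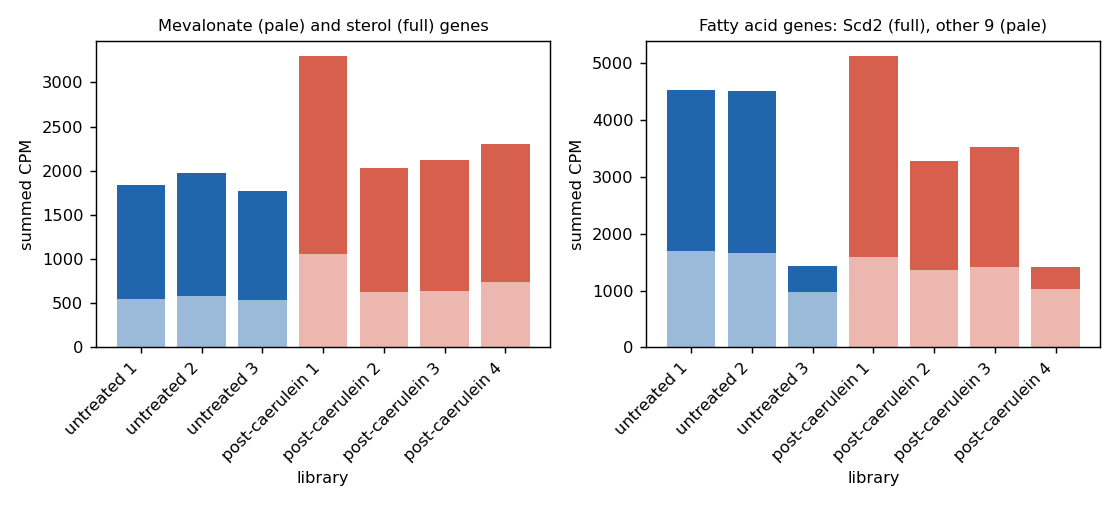
Summed CPM in each library of the mevalonate (pale) and sterol (full colour) genes on the left and of Scd2 (full) and the other 9 fatty acid genes (pale) on the right, with untreated libraries in blue and post-caerulein libraries in red. The sterol sum peaks in post-caerulein 1 at 3299 CPM, and the fatty acid sum drops to 1426 and 1418 CPM in untreated 3 and post-caerulein 4.

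When the 5 libraries of the larger block were tested alone, 4 members were called by edgeR, against 13.8% of all genes, a share close to theirs (7.35% of all genes were called higher and 6.46% lower). The 5 libraries include the 2 closest pairs of the 7: the median absolute difference over all tested genes, in log2 of CPM + 0.5, was 0.091 between post-caerulein 2 and 3 and 0.12 between untreated 1 and 2, against 0.21 or more for every other pair. The effect of this on the calls was not tested. Msmo1 was higher by a log2 change of 0.84 ± 0.21 (adjusted p = 0.0456, edgeR). Scd1 was lower at -1.49 ± 0.33 (adjusted p = 0.0312), Acss2 at -0.56 ± 0.12 (adjusted p = 0.0233) and Acaca at -0.45 ± 0.087 (adjusted p = 0.0189), all in the same edgeR fit. For each of the 4 genes the groups did not overlap within that block. The same held for 6 members with post-caerulein higher and 5 with post-caerulein lower in all, against 21.9% and 24.2% of all genes. In post-caerulein 4 against untreated 3, Msmo1 was 390.0 against 344 CPM and Scd1 1.16 against 2.22 CPM, in the same directions, while Acss2 was 20.1 against 17.6 CPM and Acaca 55.2 against 54.9 CPM. The authors' deposited table calls 3 of the 32 members at a false discovery rate under 0.05, against 7.88% of its 12983 genes (4.49% higher, 3.39% lower): Hmgcs1 (log2 change 0.65, false discovery rate 0.0315), Msmo1 (0.64, 0.0306) and Scd1 (-1.36, 1.88e-06).

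Of 47 further genes of these pathways listed beside the members, 45 were matched and 44 tested. They had 26 positive and 18 negative log2 changes, and 0 were called by edgeR in either fit over all libraries. The 6 further genes listed under sterol synthesis had 3 positive log2 changes, with a median of 0.046. The 3 negative ones were Ggps1 (-0.32), Dhdds (-0.02) and Nus1 (-0.03), which serve geranylgeranyl and dolichol synthesis, not the sterol chain. Of the 18 further fatty acid genes tested, 13 were positive, with a median of 0.17. As listed, these further genes did not share the directions of the members' branches, but the sterol list mixes genes of the sterol chain with others. Elovl7, another elongase, had groups that did not overlap, at 66.3 ± 6.14 CPM (SD, n = 3) without and 87.9 ± 13.7 CPM (SD, n = 4) with earlier caerulein (log2 change 0.41 ± 0.14, adjusted p = 0.386, edgeR). The cholesterol exporters Abca1 and Abcg1, known targets of the sterol sensor LXR, were low in the same 2 libraries as the desaturases. Abca1 was 22.5, 23.2 and 0.979 CPM in the untreated and 11.6, 31.5, 32.1 and 1.14 CPM in the post-caerulein libraries. Me1, malic enzyme, which supplies NADPH for fatty acid synthesis, was 415, 374 and 287 CPM in the untreated and 510, 389, 420 and 282 CPM in the post-caerulein libraries, with its lowest values again in untreated 3 and post-caerulein 4.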

How the data were processed

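Sample titles and the treatment label gave the groups and replicates (3 untreated, 4 post-caerulein libraries). Per-gene raw counts were deposited by the authors with exon coordinates and lengths, per the file headers. The submitters' processing notes name featureCounts (0.6.1), GRCm38 (mm10) and edgeR (3.2.2). Antisense and overlapping genes may share reads, with aligner and strandedness not given in the sources used here. For 12983 genes the authors' deposited table holds log2 fold changes and log2 CPM, a likelihood ratio score, p-values and false discovery rates, per the file headers. A likelihood ratio refit with the block (untreated 3 and post-caerulein 4 against the rest) gave back its log2 values to within 3.2e-08 and all 1023 calls.

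The filter was filterByExpr (at least 10 counts, total at least 15). Counts were scaled by TMM and tested two-sided with edgeR 4.0.16 (quasi-likelihood, robust) in R 4.3.3, with Benjamini-Hochberg adjustment over 16438 genes and a threshold of 0.05. The group was the only term, and a second fit added the block. Total counts were 34783738 to 46744497. CPM uses TMM library sizes, and CPM per kilobase divides by the deposited exon length. Alternatives were other scalings, no filter, 50 counts in 3 libraries, each library left out, the replicate number as a block, the larger block alone, DESeq2 1.42.0 and limma-voom (limma 3.58.1). Tested on simulated data over 16049 genes, the group-only comparison recovered 39% of true 2-fold and 86% of true 4-fold changes, and the comparison with the block, over 16077 genes, 69% and 100%. The simulated libraries held no close pairs.

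The members, gene lists and block were chosen with earlier results of these data known. Values in every library were given for called members, members with non-overlapping groups and the largest changes of each role, with others named after their values were seen. Some related genes that this rule takes are not reported here. Marker lists were summed as CPM. Promoter motifs were matched exactly. Figures were drawn with matplotlib 3.10.9.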

Additional observations from a re-analysis of the deposited data

Results flagged for a closer look

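Within the post-caerulein group, 5 of 32 members had 1 library far from the other 3, by a gap above Dixon's critical share of the group's range. Chance flags about 1 in 20 groups if values are normal and genes independent. The share of all genes flagged by this rule was not counted, so 5 of 32 is not read as an excess. In 4 of the 5 it was post-caerulein 1 that stood high. Tm7sf2 was 40.8 CPM there and 18.2 to 21.3 CPM in the other libraries of the group. Nsdhl was 88.8 CPM against 53.9 to 57.1 CPM. Sc5d was 161 CPM against 97.0 to 97.7 CPM. Elovl6 was 108 CPM against 61.5 to 66.7 CPM. Fads1 was low in post-caerulein 4, at 11.3 CPM against 30.1 to 31.1 CPM.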

How the results depend on the processing

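With 3 untreated and 4 post-caerulein libraries, the simulated 2-fold changes were recovered in 39% of genes, and the sterol-branch changes were under 2-fold. The count of called members was 0 in the group-only fit and with each library left out, and 4 in the larger block alone. Genes called over all went from 0 in the group-only fit to 23 with no filter, 509 with DESeq2, 251 with the block of the deposited table and 2247 in the larger block alone, and ranged from 0 to 1149 with each library left out (1149 without untreated 3, 57 without post-caerulein 4). In the fit with that block, called members went from 0 to 3 with DESeq2 and ranged from 0 to 4 with each library left out (4 without untreated 3, 4 without post-caerulein 4, and 1 without post-caerulein 1). Genes called there went from 251 to 602 with no filter, 138 with the stricter filter and 1389 with DESeq2, and ranged from 0 (without untreated 1 or 2) to 2267 (without untreated 3).

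The median log2 change of the mevalonate and sterol genes kept its sign under every alternative run, from 0.11 to 0.41 with each library left out. That of the fatty acid genes did not: it ran from -0.29 to 0.098 with each library left out, positive without untreated 1, untreated 2 or post-caerulein 4, and was 0.13 with the replicate block. Positive sterol-branch genes ranged from 14 to 17 of 17 with each library left out, and positive fatty acid genes from 3 to 7 of 10. With the replicate block, fitted on replicates 1 to 3 of each group, the positive fatty acid genes numbered 8 and the reversed values were Srebf1 0.092, Insig1 0.0052, Acss2 0.0069, Fasn 0.13, Scd2 0.64 and Elovl5 0.12. For replicates 1 to 3, each library's deviation from its group mean was taken per gene, in log2 of CPM + 0.5. These deviations correlated at 0.21, -0.20 and 0.18 between same-numbered libraries, which does not settle if the numbers pair the samples. Untreated 3 lies on the other side of the block from post-caerulein 1 to 3, and this check cannot separate block from pairing. In the larger block alone Fdps was -0.022 and Scap 0.016, and with limma-voom Scd2 was 0.0081. With each library left out, reversals gave ranges of -0.17 to 0.35 for Pmvk, -0.058 to 0.16 for Fdps, -0.015 to 0.28 for Lss, -0.046 to 0.11 for Srebf2, -0.32 to 0.073 for Srebf1, -0.11 to 0.052 for Scap, -0.50 to 0.0046 for Insig1, -0.27 to 0.091 for Fasn, -0.50 to 0.32 for Scd2, -0.31 to 0.093 for Elovl5, -0.041 to 0.55 for Fads1 and -0.040 to 0.63 for Fads2. The log2 change of 19 of 32 members, 14 of them in the sterol branch, did not reverse under any alternative run. The cause of these differences was not tested.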
